A study of Mus musculus with 6 samples.

Results

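The enzymes that handle aldehydes, alcohols, ketones, esters and epoxides were examined in 3 sorted populations of mouse lung epithelium. They were taken as every protein-coding row of the deposited table whose symbol began with Aldh, Adh, Akr, Cbr, Aox, Ces or Ephx followed by a digit, which gave 52 of 22239 genes, or of 14861 protein-coding genes. These 52 comprised 19 aldehyde dehydrogenases, 3 alcohol dehydrogenases, 11 aldo-keto reductases, 4 carbonyl reductases, 4 aldehyde oxidases, 7 carboxylesterases and 4 epoxide hydrolases. RNA was sequenced in bulk from mice aged 8 weeks, with 2 samples each of bronchioalveolar stem cells (BASC), alveolar type 2 (AT2) cells and bronchiolar Club cells. BASC were sorted as CCSP-mCherry+/SPC-YFP+, AT2 cells as SPC-YFP+ and Club cells as CCSP-mCherry+, after cells bearing CD31 or CD45 had been removed from the lung homogenates. The reporters are driven by Scgb1a1 (CCSP) and Sftpc (SPC), so each population is what its reporters mark, and no treatment separated the groups. Values are the authors' normalised counts. Each population had n = 2 samples, and the labels do not say whether these were separate animals. A p-value here therefore reflects the spread between 2 samples of each kind, which may be technical.

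Reactive aldehydes arise in cells from ethanol, from lipid peroxidation and from amino acid breakdown. Aldehyde dehydrogenases and the molybdenum-dependent aldehyde oxidases oxidise them to acids, while aldo-keto and carbonyl reductases reduce carbonyl groups to alcohols. Carboxylesterases split esters, epoxide hydrolases open the epoxides that cytochrome P450 enzymes leave behind, and alcohol dehydrogenases and Aldh1a enzymes also make retinoic acid from retinol. Club cells are known as the main site of such xenobiotic metabolism in the mouse airway, AT2 cells as the surfactant-making cells of the alveolus, and BASC as cells at the junction of bronchiole and alveolus that carry marks of both.

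The 5 enzyme genes that were higher in BASC than in AT2 cells, on which most of the results below turn, are shown first by their promoters, from 250 bases before to 50 bases after the RefSeq start (GRCm38.p6, 5′ to 3′ on the gene's strand). Aldh1a1 (chr19:20601718-20602017, plus strand) and Aldh1a7 (chr19:20727507-20727806, minus strand) are neighbours on chromosome 19, and capitals mark the bases that differ between them within the 160 bases that align without a gap at the 3′ end of both windows.
Aldh1a1: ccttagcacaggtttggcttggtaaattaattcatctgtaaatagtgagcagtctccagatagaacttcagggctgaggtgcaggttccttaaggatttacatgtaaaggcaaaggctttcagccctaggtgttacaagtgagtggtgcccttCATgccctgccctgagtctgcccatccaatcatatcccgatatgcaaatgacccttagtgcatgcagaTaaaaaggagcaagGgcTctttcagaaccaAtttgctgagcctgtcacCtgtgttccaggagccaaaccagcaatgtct
Aldh1a7: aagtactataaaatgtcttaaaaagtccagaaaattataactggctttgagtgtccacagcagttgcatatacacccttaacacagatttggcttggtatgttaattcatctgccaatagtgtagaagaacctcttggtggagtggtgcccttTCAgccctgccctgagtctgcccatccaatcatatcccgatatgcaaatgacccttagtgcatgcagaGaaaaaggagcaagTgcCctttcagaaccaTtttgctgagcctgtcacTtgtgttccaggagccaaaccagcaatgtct
In those 160 bases, window positions 141 to 300, the 2 promoters were 95% identical, with 8 differences. Upstream of the block, identity position by position with no gap allowed was 17.9%. Similar stretches stand there at shifted positions in the 2 windows, so this value does not show where their likeness ends. Counted from 1 at the 5′ end of the window, with the Aldh1a1 base first, the differences are C154T, A155C, T156A, T222G, G236T, T239C, A252T and C270T, and T222G lies at -29 from the start. The coding sequences of the 2 genes were 91.9% identical.

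For Aox3 (chr1:58112886-58113185, plus strand), Ephx1 (chr1:181017520-181017819, minus strand) and Cbr2 (chr11:120731972-120732271, minus strand), capitals mark matches, on either strand, to 5 motifs, namely TATAAA for the TATA box, CCAAT for the site bound by nuclear factor Y, GGGCGG for the GC box, TGACNNNGC for the core of the antioxidant response element and GCGTG for that of the xenobiotic response element.
Aox3: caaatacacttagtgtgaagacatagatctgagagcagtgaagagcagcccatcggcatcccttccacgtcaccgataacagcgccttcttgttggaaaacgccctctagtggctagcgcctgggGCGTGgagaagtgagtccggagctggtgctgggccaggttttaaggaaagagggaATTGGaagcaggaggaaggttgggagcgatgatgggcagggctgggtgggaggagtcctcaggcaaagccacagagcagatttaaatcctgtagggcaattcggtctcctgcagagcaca
Ephx1: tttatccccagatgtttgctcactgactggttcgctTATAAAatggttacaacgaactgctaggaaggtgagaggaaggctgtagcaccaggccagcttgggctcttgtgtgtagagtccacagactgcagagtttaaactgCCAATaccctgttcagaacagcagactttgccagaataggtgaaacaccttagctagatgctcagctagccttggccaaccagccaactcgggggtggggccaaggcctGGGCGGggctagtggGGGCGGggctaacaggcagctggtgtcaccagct
Cbr2: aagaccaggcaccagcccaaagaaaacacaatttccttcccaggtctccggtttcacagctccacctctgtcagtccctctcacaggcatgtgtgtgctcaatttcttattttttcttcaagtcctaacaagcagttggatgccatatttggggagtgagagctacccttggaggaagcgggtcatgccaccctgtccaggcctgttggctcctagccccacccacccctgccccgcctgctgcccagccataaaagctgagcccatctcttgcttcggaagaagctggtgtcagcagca
The Aox3 window held GCGTG and, on the opposite strand, CCAAT. The Ephx1 window held 1 TATA box, 1 CCAAT match and 2 GC boxes by these letters, and none of the 5 motifs stood in the Cbr2 window. Of the 52 genes, 42 had a promoter sequence in the RefSeq table, and so did 11428 protein-coding genes of the deposited table. CCAAT stood in 52.4% of the 42 and 38.1% of the 11428, TATAAA in 14.3% and 7.60%, GGGCGG in 35.7% and 61.8%, TGACNNNGC in 4.76% and 14.7%, and GCGTG in 35.7% and 49.2%. A match is a description of the letters and not of a bound site.

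Estimated reads over the genes of the table lay between 10122640 and 18205636 per sample, and the upper limit for a gene at 0, taken as 3 reads, was 2.29 to 4.02 normalised counts per sample, for counting error only. The reporter genes followed the sort: Scgb1a1 had 43993 and 58791 normalised counts in BASC samples, 413 and 302 in AT2 samples, and 751642 and 760675 in Club samples, and Sftpc stayed at 240 and 224 in Club cells. Pearson's r of log2 values across the 17721 genes tested was 0.857 between the BASC samples and between 0.838 and 0.851 between BASC and AT2 samples. The sum of 8 ciliated cell markers was 2955 and 3037 in BASC samples, 2563 and 2847 in AT2 samples, and 8484 and 8569 in Club samples, with the ciliated regulator Foxj1 at 115 and 100, 96 and 40, and 795 and 825 in the same order of groups. The sum of 5 goblet cell markers was 418 and 517 in BASC samples, 68 and 37 in AT2 samples, and 73567 and 64330 in Club samples, where 71552 and 62105 of it was the mucin gene Muc5b, which Club cells also express. The 9 AT2 markers summed to 995336 and 1009306 in BASC samples, 1076658 and 1172542 in AT2 samples, and 89904 and 109504 in Club samples. These markers were uneven in Club samples, with Sftpa1 at 33231 and 42594 and Sftpb at 29454 and 36944. Lamp3 stood at 38 and 40 there and Etv5 at 55 and 83. The part of other cells' RNA in the differences below was not tested. The 2 basal cell markers with a row in the table summed to at most 43 in any sample, with Krt5 at 0 in BASC and AT2 cells.

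The 52 genes together took 0.629% and 0.720% of all values in BASC, 0.348% and 0.377% in AT2 samples, and 1.85% and 1.85% in Club samples. Their summed normalised counts were 85318 and 96969 in BASC samples, 48429 and 53140 in AT2 samples, and 235678 and 243666 in Club samples, so the 3 populations did not overlap and BASC lay between the others. Cbr2 alone made up between 38.0% and 49.0% of the sum in each sample. The classes differed in where BASC stood. Summed aldehyde oxidases came to 16097 and 20083 in BASC samples, 7073 and 5788 in AT2 samples, and 16742 and 17706 in Club samples, so BASC and Club samples overlapped. Summed aldehyde dehydrogenases came to 16303 and 17810 in BASC and 13470 and 14067 in AT2, far under the 86189 and 80394 in Club cells. Carboxylesterases, at 6228 and 6701 in BASC, overlapped with the 5045 and 6523 of AT2 and lay under the 16712 and 17283 of Club cells. In bulk RNA, fewer cells of a type and less RNA per cell cannot be told apart, and a sum weights long genes more than short ones.

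**Figure D1:**
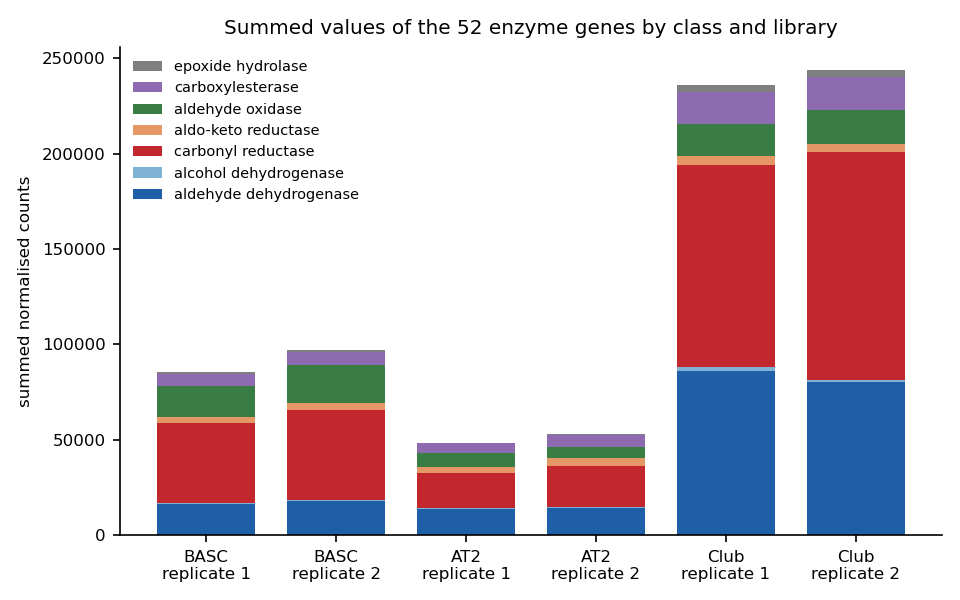
Summed normalised counts of the 52 enzyme genes in each of the 6 libraries (x axis: BASC, AT2 and Club replicates; y axis: sum, linear from 0), stacked by enzyme class. Sums run from 85318 to 96969 in BASC, from 48429 to 53140 in AT2 and from 235678 to 243666 in Club cells, and the aldehyde oxidase layer is about as thick in BASC as in Club cells.

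Comparing BASC with AT2 cells asked which enzymes set the double-reporter cells apart. Of the 46 members tested, 5 were higher in BASC, namely Aldh1a1, Aldh1a7, Aox3, Cbr2 and Ephx1, which is 10.9% of those tested, against 0.553% of all 17721 genes called higher by limma at an adjusted p under 0.05. None was called lower, against 0.0790% of all genes, and 2, Aldh1l1 and Akr1b3, were lower at an unadjusted p under 0.05. In either direction 0.632% of all genes were called. The median log2 fold change was 0.20 over the members and 0 over all genes tested, and 0.22 over members with bounds in place of fitted values. All 5 calls rest on both BASC samples. With either BASC replicate left out, none of these calls was kept, and hardly any gene of the whole table was called. Without a trend in the variance limma called 0 members, against 0.818% of all genes, with 8 members at an unadjusted p under 0.05. The log2 fold changes kept their sign in each of the 17 alternative fits.

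Comparing BASC with Club cells asked where BASC fall short of the airway programme. Of 46 members, 14 were lower in BASC, 30.4% of those tested, against 5.42% of all genes, and 2 were higher, 4.35% against 5.77%. In either direction these were 16 members, 34.8%, against 11.2% of all genes. Of the 14, Adh1 and Ephx4 passed the filter on low values only through the Club samples, so their difference was fixed by the filter. Without the genes that passed through a single population alone, 12 of 43 members were lower, 27.9%, against 3.70% of 16876 genes. Adh7 and Ces1f stayed among the 12, although they would have failed the filter without their Club values. The 14 comprised 6 aldehyde dehydrogenases, both Adh7 and Adh1 among the alcohol dehydrogenases, 2 carbonyl reductases, 2 carboxylesterases and 2 epoxide hydrolases. No aldehyde oxidase was called by limma, with 1, Aox1, lower at an unadjusted p under 0.05. The median log2 fold change was -0.98 over the members and -0.10 over all genes. With either Club replicate left out, fewer members and fewer genes of the whole table were called. The members called in each of the 6 fits that left out a sample were Aldh1a1, Aldh1a7, Aldh2, Aldh3a1, Aldh9a1, Cbr2, Ces1d and Ephx1.

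AT2 and Club cells, the populations with 1 reporter each, gave the most calls. Of 46 members, 21 were lower in AT2 cells, 45.7% of those tested, against 9.71% of all genes, and 3 were higher, 6.52% against 8.42%. In either direction these were 24 members, 52.2%, against 18.1% of all genes, and the median log2 fold change was -1.32 over the members and -0.10 over all genes. All 4 tested carboxylesterases, 3 of 4 carbonyl reductases, 2 of 3 aldehyde oxidases, 7 of 17 aldehyde dehydrogenases, 2 of 11 aldo-keto reductases, 2 of 4 epoxide hydrolases and 1 of 3 alcohol dehydrogenases were lower. The counts of carboxylesterases, aldo-keto reductases, epoxide hydrolases and alcohol dehydrogenases include genes that met the filter through their Club values, named below. With either Club replicate left out, fewer members and fewer genes of the whole table were called. Members that lost their call or were not tested in some of the 6 fits that left out a sample were Akr1c18, Aldh18a1, Aldh5a1, Cbr1, Cbr3, Ces1e, Ces1f, Ces1g and Ephx4. Akr1c18 and Ephx4 passed the filter only through the Club samples, and without the genes that passed through a single population alone 19 of 43 members were lower, 44.2%, against 7.67% of 16876 genes. Adh7, Ces1f and Ces1g stayed among the 19, although they would have failed the filter without their Club values. The 3 comparisons share samples, and each is given with its own values.

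**Figure D2:**
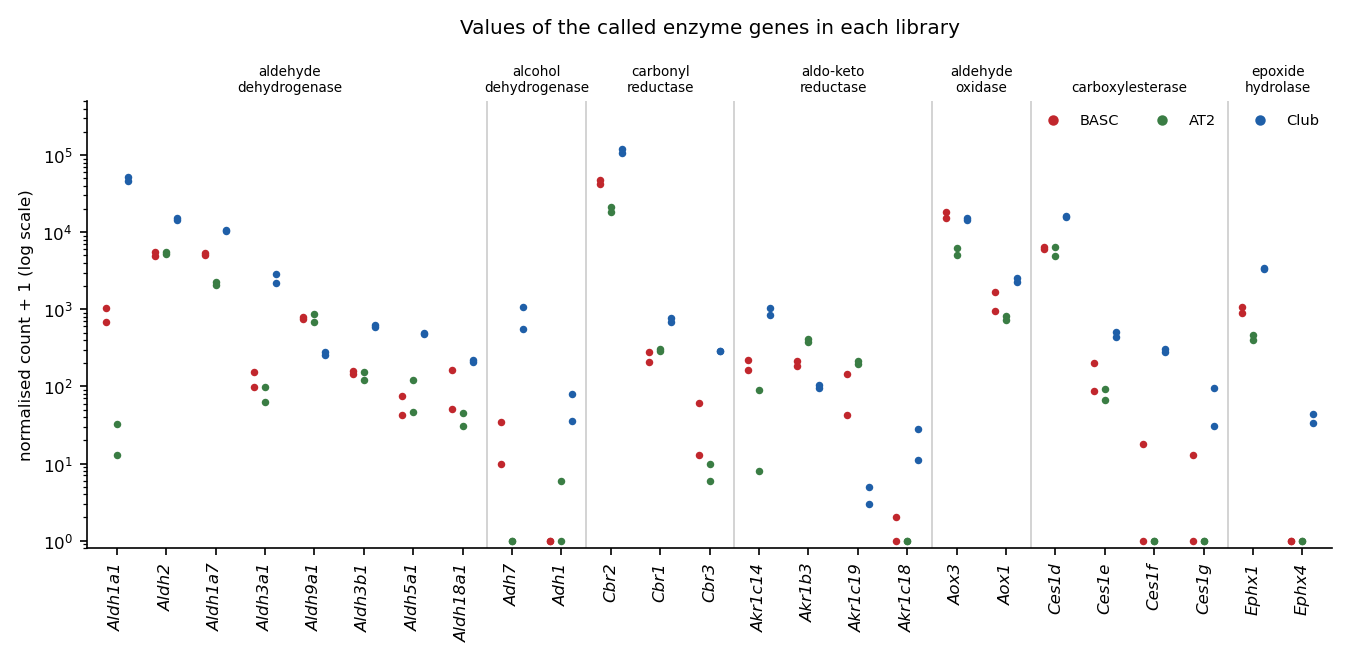
Normalised count plus 1 (y axis, log scale) of the 25 enzyme genes called in at least 1 comparison, 1 point per library, grouped by class along the x axis, with BASC, AT2 and Club from left to right within a gene. Aldh1a1 counts are 675 and 1027 in BASC libraries, 32 and 12 in AT2 libraries and 52198 and 46721 in Club libraries, whereas Aox3 is as high in BASC as in Club cells.

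Among the aldehyde dehydrogenases, Aldh1a1 and Aldh1a7 were the 2 called between BASC and AT2 cells. Aldh1a1 (ENSMUSG00000053279, GRCm38 chromosome 19, 20601961 to 20643462, plus strand) encodes the cytosolic retinaldehyde dehydrogenase that makes retinoic acid. It had 675 and 1027 normalised counts in BASC samples, 32 and 12 in AT2 samples, and 52198 and 46721 in Club samples. The 3 populations lay far apart. BASC were 38.7-fold higher than AT2 cells (log2 fold change 5.33 ± 0.42 SE, limma adjusted p = 0.00372) and 58.1-fold lower than Club cells (-5.89 ± 0.42, limma adjusted p = 0.000209). AT2 cells were 2248-fold lower than Club cells (-11.22 ± 0.42, limma adjusted p = 8.57e-06). The folds depend on which AT2 sample is used. Without AT2 replicate 1 they were 70.9-fold for BASC against AT2 and 4122-fold for AT2 against Club cells, and without AT2 replicate 2 they were 26.6-fold and 1546-fold. With voom weights the difference between BASC and AT2 cells did not pass.

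Aldh1a7 (ENSMUSG00000024747, chromosome 19, 20692953 to 20727562, minus strand) is its rodent paralogue. It had 5024 and 5356 normalised counts in BASC samples, 2245 and 2051 in AT2 samples, and 10601 and 10424 in Club samples, again without overlap but within a far narrower range. BASC were 2.42-fold higher than AT2 cells (log2 fold change 1.27 ± 0.11 SE, limma adjusted p = 0.00476) and 2.03-fold lower than Club cells (-1.02 ± 0.11, limma adjusted p = 0.00138), and AT2 cells were 4.89-fold lower than Club cells (limma adjusted p = 1.92e-05). The ratio of Aldh1a1 to Aldh1a7 counts was 0.134 and 0.192 in BASC samples, 0.0142 and 0.00585 in AT2 samples, and 4.92 and 4.48 in Club samples, so the paralogue that was in excess changed between Club cells and the other populations. Per kilobase of exon the means were 172 for Aldh1a1 and 2512 for Aldh1a7 in BASC, 4.46 and 1040 in AT2 samples, and 10018 and 5088 in Club samples, in the same order of genes. Genes with 95% identical proximal promoters thus stood at very unequal levels in AT2 cells. Of the 50-base stretches of their transcripts, 6.54% of those of Aldh1a1 and 7.49% of those of Aldh1a7 occurred in the other, and reads from those stretches could have been split between them.

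Mitochondrial Aldh2, the enzyme that clears acetaldehyde from ethanol, was lower in both BASC and AT2 cells than in Club cells. It had 4907 and 5573 normalised counts in BASC samples, 5210 and 5600 in AT2 samples, and 14296 and 15094 in Club samples. BASC and AT2 samples overlapped (log2 fold change -0.05, 95% interval -0.30 to 0.21, limma adjusted p = 0.905). Both lay under the Club samples, BASC 2.80-fold (limma adjusted p = 0.000253) and AT2 2.72-fold (limma adjusted p = 0.000172). Aldh3a1, which oxidises the medium-chain aldehydes of lipid peroxidation, had 153 and 97 in BASC samples, 61 and 98 in AT2 samples, and 2861 and 2180 in Club samples. BASC and AT2 samples overlapped, and Aldh3a1 was 20.2-fold lower in BASC than in Club cells (limma adjusted p = 0.000459) and 31.7-fold lower in AT2 cells (limma adjusted p = 0.000138). Its neighbour Aldh3a2, the fatty aldehyde dehydrogenase, had 1121 and 1815 in BASC samples, 1616 and 1693 in AT2 samples, and 1263 and 1117 in Club samples and was called in no comparison.

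The remaining aldehyde dehydrogenases split by direction. Aldh3b1, which oxidises lipid-derived aldehydes, had 158 and 146 normalised counts in BASC samples, 153 and 119 in AT2 samples, and 631 and 593 in Club samples, 4.03-fold lower in BASC (limma adjusted p = 0.00598) and 4.50-fold lower in AT2 cells (limma adjusted p = 0.00264) than in Club cells. Aldh5a1, the succinic semialdehyde dehydrogenase of GABA breakdown, had 74 and 41 in BASC samples, 45 and 120 in AT2 samples, and 476 and 490 in Club samples, lower in both BASC (limma adjusted p = 0.0163) and AT2 (limma adjusted p = 0.0189). The 5.85-fold difference of AT2 from Club cells became 10.7-fold without AT2 replicate 2. For both genes the BASC and AT2 samples overlapped and lay under the Club samples. Aldh18a1, which makes the proline precursor pyrroline carboxylate, had 50 and 163 in BASC samples, 44 and 30 in AT2 samples, and 204 and 218 in Club samples, with a call only between AT2 and Club cells (limma adjusted p = 0.0402) that no longer held without a sample of either group. Aldh9a1 ran the other way. This enzyme of carnitine synthesis had 786 and 739 in BASC samples, 690 and 871 in AT2 samples, and 257 and 281 in Club samples, 2.83-fold higher in BASC (limma adjusted p = 0.00479) and 2.90-fold higher in AT2 (limma adjusted p = 0.00273) than in Club cells, and it was called in each of the 17 alternative fits of both comparisons.

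Several aldehyde dehydrogenases of core metabolism were abundant and called nowhere. Aldh6a1, of valine breakdown, had 1377 and 991 normalised counts in BASC samples, 1110 and 1076 in AT2 samples, and 1515 and 1288 in Club samples. Aldh7a1, of lysine breakdown, had 734 and 867 in BASC samples, 598 and 686 in AT2 samples, and 586 and 846 in Club samples. Aldh1l1, the cytosolic formyltetrahydrofolate dehydrogenase, had 871 and 523 in BASC samples, 1294 and 1045 in AT2 samples, and 843 and 761 in Club samples. The AT2 samples were the highest for Aldh1l1, without a call (limma adjusted p = 0.265 for BASC against AT2 and 0.225 for AT2 against Club cells). The antisense gene Gm15756 overlaps 499 bases of its exons, and reads of the pair cannot be told apart.

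Alcohol dehydrogenases divided into 1 even and 2 Club-high genes. Adh5, the formaldehyde dehydrogenase and S-nitrosoglutathione reductase found in most cells, had 545 and 463 normalised counts in BASC samples, 430 and 449 in AT2 samples, and 517 and 457 in Club samples, with no call. Adh7, the retinol and ethanol dehydrogenase of epithelia, had 9 and 34 in BASC samples, 0 and 0 in AT2 samples, and 1075 and 557 in Club samples. It was 38.0-fold lower in BASC than in Club cells (limma adjusted p = 0.0169), or 24.0-fold without BASC replicate 1 and 90.7-fold without BASC replicate 2, and at least 297-fold lower in AT2 cells (limma adjusted p = 0.000850), a bound set by a floor of 3 reads per library averaged over the group. Between BASC and AT2 cells Adh7 was not called (limma adjusted p = 0.140). Outside Club cells only BASC replicate 2 reached 10, so Adh7 met the filter through its Club values. Its p-values against Club cells are not free of that selection. Adh1, the main liver form, lies beside Adh7 and had 0 and 0 in BASC samples, 5 and 0 in AT2 samples, and 79 and 35 in Club samples, at least 16.9-fold lower in BASC than in Club cells. No p is given, since Adh1 passed the filter only through the Club samples, and without Club replicate 1 the bound was 10.3-fold and without Club replicate 2 it was 23.4-fold.

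The carbonyl reductases were led by Cbr2 (ENSMUSG00000025150, chromosome 11, 120729489 to 120732114, minus strand), a mitochondrial enzyme abundant in mouse lung and often used as a Club cell marker. Cbr2 had 41810 and 46857 normalised counts in BASC samples, 18423 and 21448 in AT2 samples, and 104997 and 118254 in Club samples, with no overlap. BASC were 2.22-fold higher than AT2 cells (log2 fold change 1.15 ± 0.12 SE, limma adjusted p = 0.0106) and 2.52-fold lower than Club cells (-1.33 ± 0.12, limma adjusted p = 0.000677), and AT2 cells were 5.60-fold lower than Club cells (limma adjusted p = 2.19e-05). Per kilobase of exon it averaged 33409 in BASC samples, 15023 in AT2 samples and 84119 in Club samples. Of its 50-base stretches 15.1% also occur in the predicted gene Gm11771, so part of its reads could have been assigned otherwise. Cbr1, a cytosolic reductase of quinones and prostaglandins, had 209 and 275 in BASC samples, 304 and 288 in AT2 samples, and 685 and 766 in Club samples, and here AT2 and BASC both lay below Club cells, 3.0-fold for BASC (limma adjusted p = 0.00746) and 2.45-fold for AT2 (limma adjusted p = 0.0117). Its neighbour Cbr3 had 12 and 60 in BASC samples, 9 and 5 in AT2 samples, and 290 and 284 in Club samples, called only between AT2 and Club cells (41.0-fold lower in AT2, limma adjusted p = 0.00953), and BASC against Club cells missed the threshold (limma adjusted p = 0.0673).

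**Figure D3:**
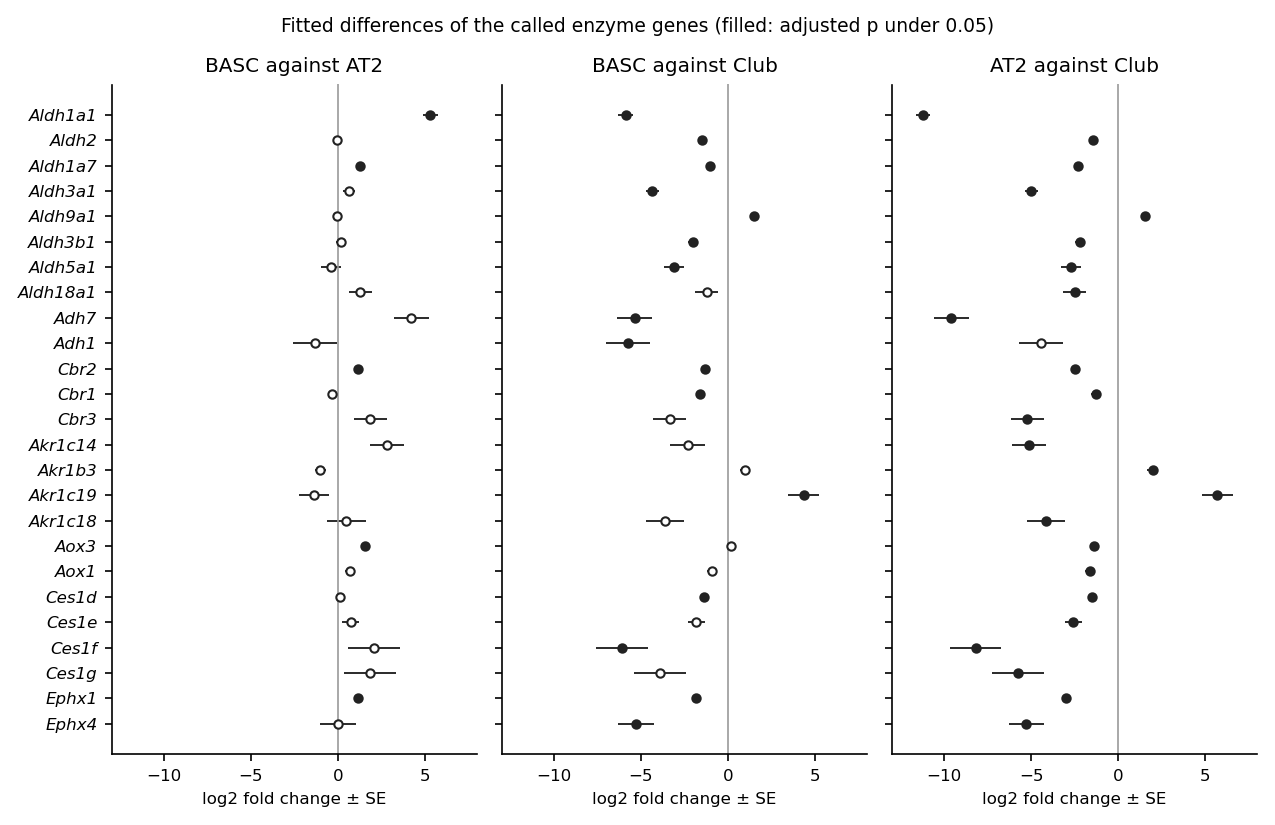
Log2 fold change (x axis) with its SE as bars for the 25 called enzyme genes (rows, by class) in BASC against AT2, BASC against Club and AT2 against Club cells, with filled points for a limma adjusted p under 0.05. Filled points in BASC against AT2 are 5, all right of 0, whereas 14 of 16 in BASC against Club and 21 of 24 in AT2 against Club lie left of 0.

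Aldo-keto reductases held 2 of the 3 members that were higher in AT2 than in Club cells. Akr1b3, aldose reductase, had 213 and 181 normalised counts in BASC samples, 378 and 414 in AT2 samples, and 103 and 95 in Club samples. AT2 cells were 4.0-fold higher than Club cells (log2 fold change 1.99 ± 0.31 SE, limma adjusted p = 0.00501), and BASC lay between them without a call against either. Of the 50-base stretches of Akr1b3, 59.9% recur in other genes, mostly the predicted gene Gm6644, so its level is uncertain. Akr1c19 had 42 and 145 in BASC samples, 197 and 210 in AT2 samples, and 2 and 4 in Club samples, where it was at the limit of detection. It was higher in BASC (log2 fold change 4.35 ± 0.88, limma adjusted p = 0.0218) and in AT2 (5.72 ± 0.88, limma adjusted p = 0.00464) than in Club cells. The call for BASC ended in some of the alternative fits, among them the one of only the 4 samples compared, and its 31.2-fold difference was 14.0-fold without BASC replicate 2 and 48.3-fold without BASC replicate 1.

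Akr1c14, a hydroxysteroid dehydrogenase of the same cluster, went in the other direction. It had 162 and 219 normalised counts in BASC samples, 7 and 89 in AT2 samples, and 1040 and 854 in Club samples. Both BASC samples lay between the other populations, and the only call was 19.7-fold lower in AT2 than in Club cells (limma adjusted p = 0.0121). The AT2 samples were far apart, and the fold was 10.6 without AT2 replicate 1 and 135 without AT2 replicate 2. Akr1c18, which inactivates progesterone, had 1 and 0 in BASC samples, 0 and 0 in AT2 samples, and 27 and 10 in Club samples, and was at least 6.73-fold lower in AT2 than in Club cells, or at least 3.64-fold without Club replicate 1. It too passed the filter only through the Club samples, and no p is given. Akr1a1, the broad aldehyde reductase that also serves vitamin C synthesis in mice, was the highest of the class in each sample, with 2039 and 2294 in BASC samples, 2011 and 2700 in AT2 samples, and 2784 and 2579 in Club samples, and was called nowhere. The pair Akr1c12 and Akr1c13 shares 28.6% of its 50-base stretches and had at most 123 in any sample.

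The aldehyde oxidases were the class in which BASC came closest to Club cells. Aox3 (ENSMUSG00000064294, chromosome 1, 58113136 to 58200698, plus strand), a molybdoflavoenzyme that oxidises aldehydes and aromatic heterocycles, had 15092 and 18336 normalised counts in BASC samples, 6231 and 5036 in AT2 samples, and 14446 and 15127 in Club samples. The BASC samples lay above both AT2 samples and overlapped with the Club samples. BASC were 2.97-fold higher than AT2 cells (log2 fold change 1.57 ± 0.14 SE, limma adjusted p = 0.00592), AT2 cells were 2.62-fold lower than Club cells (-1.40 ± 0.14, limma adjusted p = 0.000721), and BASC differed from Club cells by 0.17 (95% interval -0.16 to 0.50, limma adjusted p = 0.535). Aox1, which starts the same cluster, had 947 and 1676 in BASC samples, 822 and 725 in AT2 samples, and 2268 and 2549 in Club samples. It was called between AT2 and Club cells (3.11-fold lower in AT2, limma adjusted p = 0.00561) and in neither comparison of BASC, with a log2 fold change of 0.71 (95% interval 0.09 to 1.32, limma adjusted p = 0.312) against AT2 and -0.93 (-1.55 to -0.32, limma adjusted p = 0.0669) against Club cells. The difference from Club cells passed in 5 of its 17 alternative fits.

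Aox3 and Aox1 thus differed in the position of BASC, though this contrast between genes was not tested. The ratio of Aox3 to Aox1 counts was 15.9 and 10.9 in BASC samples, 7.58 and 6.95 in AT2 samples, and 6.37 and 5.93 in Club samples, so both BASC samples had the highest ratios. Aox4 had between 20 and 71 normalised counts over the 6 samples, with 58 and 71 in BASC, and Aox2 at most 7. The 4 genes lie on the same strand within 350 kb of chromosome 1, from 58029931 to 58380259, and none shared a 50-base stretch with another gene. Xdh, xanthine dehydrogenase, is the related molybdoenzyme and had 3439 and 3710 in BASC samples, 3701 and 3666 in AT2 samples, and 1190 and 1192 in Club samples, 3.0-fold higher in BASC (limma adjusted p = 0.000238) and 3.09-fold higher in AT2 (limma adjusted p = 0.000125) than in Club cells. It was 1 of 8 tested genes of its list, 12.5%, against 5.77% of all genes higher in BASC and 8.42% in AT2. The other 7 tested genes of molybdenum cofactor synthesis and molybdoenzymes were called by limma in no comparison, with 2 genes of the list of 8 at an unadjusted p under 0.05 in BASC against Club, 3 in AT2 against Club and 0 in BASC against AT2 cells.

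Carboxylesterases were nearly a single gene. Ces1d, a lipid-hydrolysing esterase of liver, fat and lung, had 6097 and 6498 normalised counts in BASC samples, 4948 and 6456 in AT2 samples, and 15965 and 16338 in Club samples. It made up between 94.5% and 99.0% of the class in each sample. BASC and AT2 samples overlapped (log2 fold change 0.16, 95% interval -0.17 to 0.48, limma adjusted p = 0.693), and Ces1d was 2.56-fold lower in BASC (limma adjusted p = 0.00123) and 2.83-fold lower in AT2 (limma adjusted p = 0.000437) than in Club cells. Its neighbour Ces1e had 86 and 201 in BASC samples, 92 and 66 in AT2 samples, and 431 and 507 in Club samples, called only between AT2 and Club cells (5.94-fold lower in AT2, limma adjusted p = 0.0108). Ces1f had 17 and 0 in BASC samples, 0 and 0 in AT2 samples, and 277 and 309 in Club samples, 34.5-fold lower in BASC (limma adjusted p = 0.0419), or 17.2-fold without BASC replicate 2 and at least 86.6-fold without BASC replicate 1, and at least 107-fold lower in AT2 (limma adjusted p = 0.00954). Ces1g had 12 and 0 in BASC samples, 0 and 0 in AT2 samples, and 30 and 94 in Club samples, at least 22.6-fold lower in AT2 (limma adjusted p = 0.0360), or at least 10.9-fold without Club replicate 2 and 34.2-fold without Club replicate 1. The calls for Ces1f against BASC and for Ces1g ended in some of the alternative fits, among them the fit with no filter on low values. Both Ces1f and Ces1g met that filter through their Club values, as Adh7 did. Their p-values against Club cells are therefore not free of that selection.

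Ephx1 (ENSMUSG00000038776, chromosome 1, 180989554 to 181017569, minus strand), the microsomal hydrolase of xenobiotic epoxides, had 886 and 1062 normalised counts in BASC samples, 404 and 466 in AT2 samples, and 3377 and 3420 in Club samples. The 3 populations did not overlap. BASC were 2.24-fold higher than AT2 cells (log2 fold change 1.16 ± 0.16 SE, limma adjusted p = 0.0371) and 3.49-fold lower than Club cells (-1.81 ± 0.16, limma adjusted p = 0.000711), and AT2 cells were 7.81-fold lower than Club cells (limma adjusted p = 3.82e-05). The first of these was the least stable of the 5 calls against AT2 and was lost in 8 of 17 alternative fits. Ephx4, a membrane hydrolase of the same fold, was at 0 in the 4 BASC and AT2 samples and at 33 and 43 in Club cells. It was at least 11.2-fold lower in BASC and at least 13.8-fold lower in AT2 than in Club cells, a difference fixed by the filter, for which no p is given. Ephx2, the soluble hydrolase of fatty acid epoxides, had at most 41 in any sample, and Ephx3 at most 59.

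How far BASC went from the AT2 towards the Club level was computed on the unlogged values. It covered members called lower in AT2 than in Club cells, with a Club mean of at least 1000 and at least 4 times the AT2 mean. BASC held 36.4% of the Club level above AT2 for Aldh1a7, with 34.4% and 38.4% in the 2 samples. The share was 26.6% for Cbr2 (23.9% and 29.4%), 18.2% for Ephx1 (15.2% and 21.2%), 1.86% for Aldh3a1 (3.01% and 0.717%) and 1.68% for Aldh1a1 (1.32% and 2.03%). The same share was 6.75% for Scgb1a1 (5.77% and 7.73%), whose reporter was sorted on, and 12.9% for Cyp2f2 (11.7% and 14.2%), a cytochrome P450 of Club cells. A single share therefore did not describe the enzymes: 3 of 5 lay above both of these genes in each BASC sample, and 2 lay below both.

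**Figure D4:**
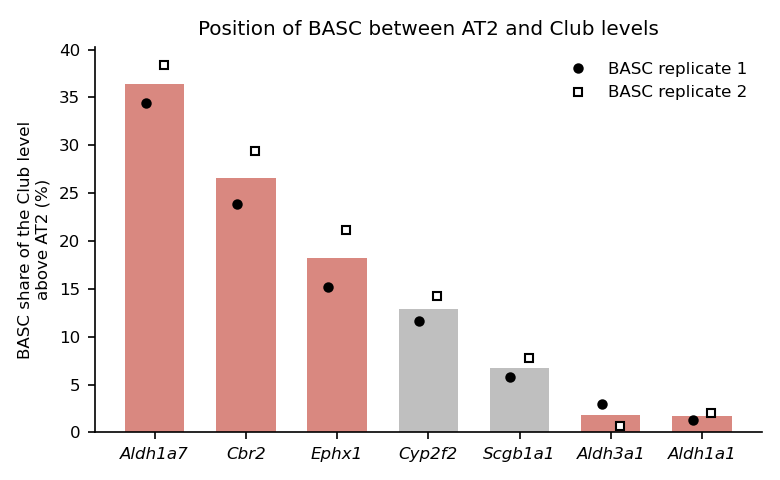
BASC share of the Club level above the AT2 level (y axis, percent, bars from group means of unlogged values) for 5 enzyme genes in red and for Cyp2f2 and Scgb1a1 in grey, with a point for each BASC replicate. Shares run from 36.4% for Aldh1a7 to 1.68% for Aldh1a1, and the 2 replicates of a gene lie closer together than Aldh1a7, Cbr2 and Ephx1 lie to Scgb1a1.

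Many of these genes sit in tandem families, and 30 of the 52 lie in 9 clusters of neighbours no more than 150 kb apart. The largest holds 7 Ces1 genes in 317 kb of chromosome 8, all on the minus strand. Within it the mean per kilobase of exon in Club cells was 6818 for Ces1d and 214 for Ces1e, and at most 89.2 for the other 5. In the Akr1c cluster of 5 genes in 230 kb of chromosome 13, Akr1c18 and Akr1c13 lie between Akr1c14 and Akr1c19. Akr1c14 had 14.8 per kilobase in AT2 and 292 in Club cells, and Akr1c19 had 34.5 in AT2 and 0.509 in Club cells. Their coding sequences were 73.8% identical. In the Aox cluster the mean per kilobase in BASC was 151 for Aox1, 2377 for Aox3 and 7.66 for Aox4, with Aox2 at 0, and the coding sequences of Aox1 and Aox3 were 69.7% identical. Genes of a cluster thus differed in level and, for Akr1c14 and Akr1c19, in the population where they were highest.

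**Figure D5:**
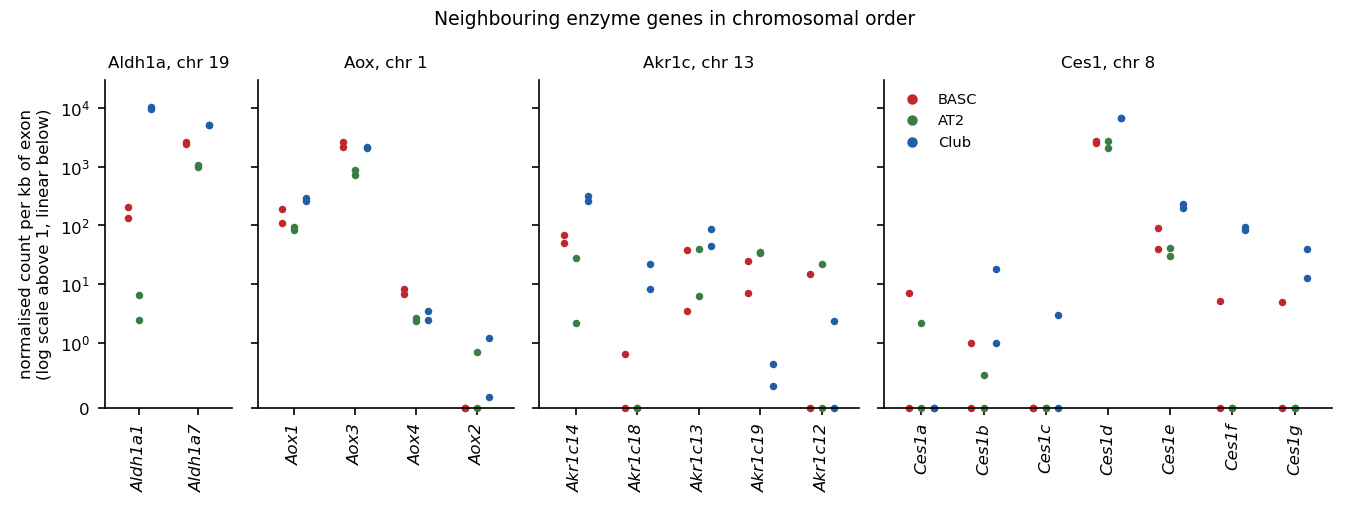
Normalised count per kilobase of exon (y axis, log scale above 1 and linear below) of neighbouring enzyme genes in their order along the chromosome (x axis) for the Aldh1a, Aox, Akr1c and Ces1 clusters, 1 point per library, with BASC, AT2 and Club from left to right within a gene. Aox3 and Ces1d stand above their neighbours in the 3 populations, and Akr1c14 and Akr1c19 are highest in Club and in AT2 cells.

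Of the 46 members tested, 25 were called in at least 1 comparison and 21 in none. Of the 21, 6 had a mean of at least 500 in some population and are described above (Adh5, Akr1a1, Aldh1l1, Aldh3a2, Aldh6a1 and Aldh7a1), and the other 15 stayed at or below 293 normalised counts in each sample. The 15 were Akr1b8, Akr1b10, Akr1c12, Akr1c13, Akr1e1, Akr7a5, Aldh16a1, Aldh1a3, Aldh1l2, Aldh3b3, Aldh4a1, Aox4, Cbr4, Ephx2 and Ephx3. The 6 members that were not tested (Aldh3b2, Aldh8a1, Aox2, Ces1a, Ces1b and Ces1c) had at most 35 in any sample. Genes on the opposite strand overlap exons of Adh1, Adh7, Aldh16a1, Aldh1l1, Aldh1l2, Aldh2, Aldh5a1, Aldh6a1, Aldh7a1, Aox4, Ces1a and Ephx4. For Aldh1l2, whose highest value was 89, the partner D10Wsu102e reached 480. Genes on the same strand overlap exons of Akr1c14, Akr1c19, Aldh1l1, Aldh4a1 and Ephx1, so shared reads could have been assigned to either. Since the strand setting of the counting is not given in the sources used here, reads of such pairs cannot be told apart.

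Other genes of the same pathways were followed through lists that are not members. Of 16 tested genes of retinoid handling, 0 were called by limma between BASC and AT2 cells, with 4 at an unadjusted p under 0.05. Against Club cells, 1 was higher and 3 were lower in BASC, 6.25% and 18.8%, against 5.77% and 5.42% of all genes. In AT2, 1 was higher and 6 were lower, 6.25% and 37.5%, against 8.42% and 9.71% of all genes. Rdh10, which oxidises retinol to retinaldehyde, had 460 and 464 normalised counts in BASC samples, 345 and 263 in AT2 samples, and 1019 and 1115 in Club samples (limma adjusted p = 0.0139 for BASC and 0.00145 for AT2 against Club cells). The retinoic acid receptor gene Rarb had 225 and 400 in BASC samples, 0 and 26 in AT2 samples, and 930 and 876 in Club samples, called between AT2 and Club cells (limma adjusted p = 0.00918). Rdh11, a retinaldehyde reductase, was higher in BASC at 599 and 495 (limma adjusted p = 0.0480) and in AT2 at 684 and 431 (limma adjusted p = 0.0345) than in Club cells at 275 and 210. Over the list the median log2 fold change was 0.19, -0.53 and -0.16 in BASC against AT2, BASC against Club and AT2 against Club cells, where that of all genes was 0, -0.10 and -0.10.

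Of 19 other carbonyl and quinone reductases tested, 0 were called by limma between BASC and AT2 cells, with 4 at an unadjusted p under 0.05. Further, 2 were higher and 2 lower in BASC than in Club cells, 10.5% each way, against 5.77% and 5.42% of all genes. In AT2, 2 were higher and 4 lower than in Club cells, 10.5% and 21.1%, against 8.42% and 9.71% of all genes. Ptgr1, which reduces prostaglandins and enals, had 439 and 444 normalised counts in BASC samples, 286 and 296 in AT2 samples, and 1470 and 1474 in Club samples (limma adjusted p = 0.00132 for BASC and 0.000181 for AT2 against Club cells). Sord, sorbitol dehydrogenase, which follows aldose reductase in the polyol pathway, had 912 and 690 in BASC samples, 875 and 1001 in AT2 samples, and 147 and 238 in Club samples. It was higher in BASC (4.16-fold, limma adjusted p = 0.00470) and in AT2 (4.87-fold, limma adjusted p = 0.00178) than in Club cells. Akr1b3 and Sord, both enzymes of that pathway, were both higher in AT2 than in Club cells. The level of Akr1b3 is uncertain, since 59.9% of its 50-base stretches recur in other genes.

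Of 13 other esterases tested, 0 were called by limma between BASC and AT2 cells, with 1 at an unadjusted p under 0.05. Further, 3 were higher and 1 lower in BASC than in Club cells, 23.1% and 7.69%, against 5.77% and 5.42% of all genes. In AT2, 4 were higher and 2 lower than in Club cells, 30.8% and 15.4%, against 8.42% and 9.71% of all genes. Iah1, named after an acetate ester hydrolase of yeast, had 1187 and 902 normalised counts in BASC samples, 1110 and 1102 in AT2 samples, and 137 and 98 in Club samples, 8.89-fold higher in BASC (limma adjusted p = 0.000356) and 9.41-fold higher in AT2 (limma adjusted p = 0.000181). Nceh1, which hydrolyses cholesteryl esters, had 1366 and 1498 in BASC samples, 1476 and 1422 in AT2 samples, and 695 and 795 in Club samples, called in both comparisons with Club cells (limma adjusted p = 0.00933 for BASC and 0.00535 for AT2). Pon1, the paraoxonase, had 1322 and 638 in BASC samples, 840 and 486 in AT2 samples, and 4136 and 3577 in Club samples, lower in BASC (limma adjusted p = 0.0149) and in AT2 (limma adjusted p = 0.00364).

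Of 10 tested genes of lipid peroxide and epoxide handling, 1 was higher in BASC than in AT2 cells, 10%, against 0.553% of all genes. Against Club cells, 3 were lower in BASC, 30%, against 5.42% of all genes. In AT2, 1 was higher and 3 lower than in Club cells, 10% and 30%, against 8.42% and 9.71% of all genes. The gene higher in BASC than in AT2 cells was Gsta4, the glutathione transferase that removes hydroxynonenal, with 1129 and 1599 normalised counts in BASC samples, 493 and 448 in AT2 samples, and 3522 and 4047 in Club samples. The BASC samples lay between the other populations, 2.90-fold above AT2 (limma adjusted p = 0.0264) and 2.77-fold below Club cells (limma adjusted p = 0.00397). Prdx6, a lipid peroxidase, had 4219 and 5720 in BASC samples, 2861 and 4038 in AT2 samples, and 16258 and 16478 in Club samples, lower in BASC (limma adjusted p = 0.00205) and in AT2 (limma adjusted p = 0.000350) than in Club cells. Gpx1, glutathione peroxidase, had 1703 and 1724 in BASC samples, 2679 and 2528 in AT2 samples, and 1241 and 1279 in Club samples, higher in AT2 than in Club cells (2.07-fold, limma adjusted p = 0.00151).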

How the data were processed

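Libraries were made with a SMARTer Stranded Total RNA-Seq Pico kit, per the labels' protocols. Reads were checked with FastQC, aligned with STAR 2.4.0a to mm10 (GRCm38) and counted with featureCounts 1.4.5-p1 of Subread, per the submitters' processing notes. Strand setting, annotation release and normalisation method: not given in the sources used here. Per gene and sample, the authors deposited 1 signal value, which by the values themselves is a gene count scaled by 1 factor per sample and rounded. The value of 1 read was estimated from the spacing of low values. Whole reads could not be recovered exactly, so no count model was used.

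Values were fitted as log2(value + 1) in limma 3.58.1 (R 4.3.3; eBayes with a trend; 3 residual and 4.20 prior degrees of freedom) over all 6 samples by group, for 17721 genes that reached 10 in 2 or more samples. The replicate numbers are not said to pair samples, so no block was used. Tests were 2-sided, adjusted by Benjamini-Hochberg over all genes tested, and called at an adjusted p under 0.05. The fit was tested on simulated data. Fold changes are ratios of group means on the unlogged values, and log2 fold changes and SE come from the fit, which understates changes of low genes. Exon lengths, overlaps and coding sequences came from GENCODE mouse release 21, which holds all 52 genes, 36 with the deposited coordinates. Promoters came from RefSeq (GRCm38.p6). Named genes were every member called in any comparison or with a group mean of at least 500, and up to 4 called genes per other list. Members, lists and tests were chosen with earlier results of these data known. Alternatives were the pseudocount, the filter, the scaling, the variance model, a replicate block and leaving out each sample.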

Additional observations from a re-analysis of the deposited data

How the results depend on the processing

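Between BASC and AT2 cells, the 5 calls became 0 with eBayes without a trend, where 145 of all genes were still called, and the cause was not tested. Leaving out 1 sample gave 0 to 5 calls there, with 0 without either BASC sample, 9 to 16 between BASC and Club cells, and 15 to 24 between AT2 and Club cells. In these fits the lone sample left in a group is assumed to vary like the other groups. No called difference changed sign under the alternatives run. Of the differences that were not called, Aldh2 in BASC against AT2 changed sign under quantile normalization (0.023), equal sums over nuclear protein coding genes (0.0026), voom weights (0.0028), without BASC replicate 1 (0.045) and without AT2 replicate 2 (0.0054), with -0.14 to 0.045 over the fits that left out a sample. Ces1d in BASC against AT2 did so without AT2 replicate 1 (-0.037), with -0.037 to 0.35 over those fits. The other alternatives left each count of members called within 1.5 times its value, and the shares of the Club level moved by less than the spread between the BASC samples. For the fits without a BASC sample this holds by construction, since that spread is the SD of the 2 BASC shares.

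With the replicate number as a block, 5, 16 and 23 members were called in BASC against AT2, BASC against Club and AT2 against Club cells. Samples with the same number did not deviate together (correlations of deviations 0.0060, 0.0085 and 0.012). That cannot show whether the numbers pair samples, since paired samples need not deviate together. Scaling moved the median log2 fold change of all genes between AT2 and Club cells from -0.10 to 0.034 by quantile normalization and to -0.22 with equal sums, and 3 higher and 20 to 22 lower members were called under the 3 scalings. Depth limits the genes near the floor of 3 reads (Adh1, Adh7, Akr1c18, Akr1c19, Ces1f, Ces1g and Ephx4), whose sizes are bounds or carry wide errors.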
